A study of Mus musculus and Oryctolagus cuniculus and Sus scrofa with 20 samples.

Results

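The experiment described here compared 2 knockout lines of mouse spermatogonial stem cells (SSCs) that lack the microRNA miR-741 with control SSCs. It takes up 3 of the 20 small RNA libraries of the series: 1 of the control, 1 of the line made with a TALEN nuclease and 1 of the line made with CRISPR, each chosen by its labelled genotype. SSCs are the self-renewing cells of the testis from which sperm descend, and they can be kept in culture. All 3 libraries came from male C57BL/6 x DBA2 F1 cells of postnatal day 15 that carried an actin-EGFP transgene, so the control carried the transgene too. The cells grew on mouse embryonic fibroblast (MEF) feeder cells in SF medium, and the labels give no treatment. Plasmids for the nucleases were brought in by nucleofection, and each knockout line was grown from a single picked colony whose sequence had been checked by the Sanger method, so each line stands for 1 clone. The labels do not say whether the control had been through nucleofection or colony picking, or how long each culture had been kept. A library of another wild type SSC culture, of strain C57BL/6, served as a measure of how far cultures differ without the knockout. With 1 library per group there was no replicate, so no test between groups was made, every difference is between these libraries, and the intervals given are exact 95% intervals that cover counting error only.

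A microRNA (miRNA) is cut from a hairpin RNA that holds a strand on each side of its loop, called the 5p and the 3p arm. The arm that is loaded into an Argonaute protein guides it to mRNAs that pair with the seed, bases 2 to 8 of the miRNA. Copies of 1 miRNA often differ by a base or more at the 3' end, since cutting is not exact and bases can be trimmed or added later. miR-741 belongs to a large, fast-evolving family of hairpins on the X chromosome that is expressed mainly in male germ cells. In the mature germline, longer small RNAs named piRNAs, which mostly start with U (read as T), guide PIWI proteins against transposons. Fragments of tRNAs and rRNAs make up much of the rest of a small RNA library.

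The sequence of the target is shown first, because the knockout is read from it. The Mir741 hairpin lies on the minus strand of the X chromosome at chrX:66796805-66796875 (RefSeq, GRCm38.p6), and capitals mark its mature arms, with the 5p arm before the loop and the 3p arm after it.
Mir741 hairpin: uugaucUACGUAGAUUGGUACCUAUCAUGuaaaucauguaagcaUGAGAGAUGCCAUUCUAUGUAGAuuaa
In the mature sequences that follow, capitals mark the seed. No other mature sequence of the reference table has the seed of miR-741-3p.
miR-741-3p: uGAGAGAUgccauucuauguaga
The next 5 sequences belong to the family members with the largest shared differences and to their closest relatives. miR-465a-5p, miR-465b-5p and miR-465c-5p have the same seed and differ after it.
miR-465a-5p: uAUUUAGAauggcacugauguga
miR-465b-5p: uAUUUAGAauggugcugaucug
miR-465c-5p: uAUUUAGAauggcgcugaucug
miR-463-3p: uGAUAGACaccauauaagguag
miR-463-5p: uACCUAAUuuguuguccaucau
The other sequences show 5 groups of miRNAs outside the family that share a seed and hold a member that differed in both lines.
miR-30e-5p: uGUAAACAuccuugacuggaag
miR-30a-5p: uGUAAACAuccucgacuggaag
miR-106b-5p: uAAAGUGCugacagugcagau
miR-17-5p: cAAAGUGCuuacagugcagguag
miR-20a-5p: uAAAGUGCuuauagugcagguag
miR-497a-5p: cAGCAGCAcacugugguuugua
miR-195a-5p: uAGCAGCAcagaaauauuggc
miR-16-5p: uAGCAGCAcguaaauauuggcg
miR-10b-5p: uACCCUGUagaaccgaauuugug
miR-10a-5p: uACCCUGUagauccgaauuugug
miR-100-5p: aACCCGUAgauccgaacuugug
miR-99a-5p: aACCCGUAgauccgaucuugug
miR-99b-5p: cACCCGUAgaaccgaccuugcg

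The targeted miRNA was all but missing from both knockout lines. Reads of miR-741-3p numbered 80096 in the control, 3 in the TALEN line and 5 in the CRISPR line, and 712660 in the much deeper C57BL/6 library. In reads per 1000000 miRNA reads (RPM) this was 171011 in the control, 11.7 in the TALEN line, 25.4 in the CRISPR line and 138932 in the C57BL/6 culture, so miR-741-3p was the most abundant miRNA of both wild type libraries. The log2 ratio over the control was -13.83 in the TALEN line (counting interval -16.11 to -12.29) and -12.72 in the CRISPR line (-14.34 to -11.49). The minor arm, miR-741-5p, had 282 reads in the control and 0 in each line. Against a floor of 3 reads, the limit that a count of 0 allows, its log2 ratio would be -5.68 (TALEN) and -5.30 (CRISPR), and the exact counting interval reaches up to -5.377 and -4.996.

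The other products of the hairpin were all but missing with it. A second form of miR-741-3p that starts 2 nt further downstream, and so has another seed, had 23263 reads in the control, 0 in the TALEN line and 0 in the CRISPR line. All reads that lie exactly in the hairpin numbered 99598 in the control, 3 in the TALEN line and 6 in the CRISPR line. Reads that match the hairpin with 1 mismatch or a 1-base gap numbered 7507 in the control and 0 in each line. No product altered by 1 base was thus seen at this depth. Products with larger deletions or insertions were not searched for. The reads left in the lines match the unedited hairpin, and 3 of the TALEN reads and 4 of the CRISPR reads held the whole reference miR-741-3p. Their source was not tested.

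The neighbouring hairpins of the cluster were all still read. Distances are from the start of the Mir741 hairpin, and positive values lie towards higher coordinates. The nearest hairpin, Mir463, lies 2.42 kb away, and its miR-463-5p stood at 1687 RPM in the control, 1592 in the TALEN line and 1931 in the CRISPR line. Mir471 lies on the other side at -4.21 kb, and its miR-471-5p stood at 6377, 11271 and 14013. miR-871-3p, from 13.6 kb away and the most abundant member after miR-741-3p in the control, stood at 87233, 71585 and 78840. Every neighbouring hairpin listed for the cluster had reads in each library, so none dropped out in both arms, although miR-742 and miR-465d had too few reads for a ratio.

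**Figure D1:**
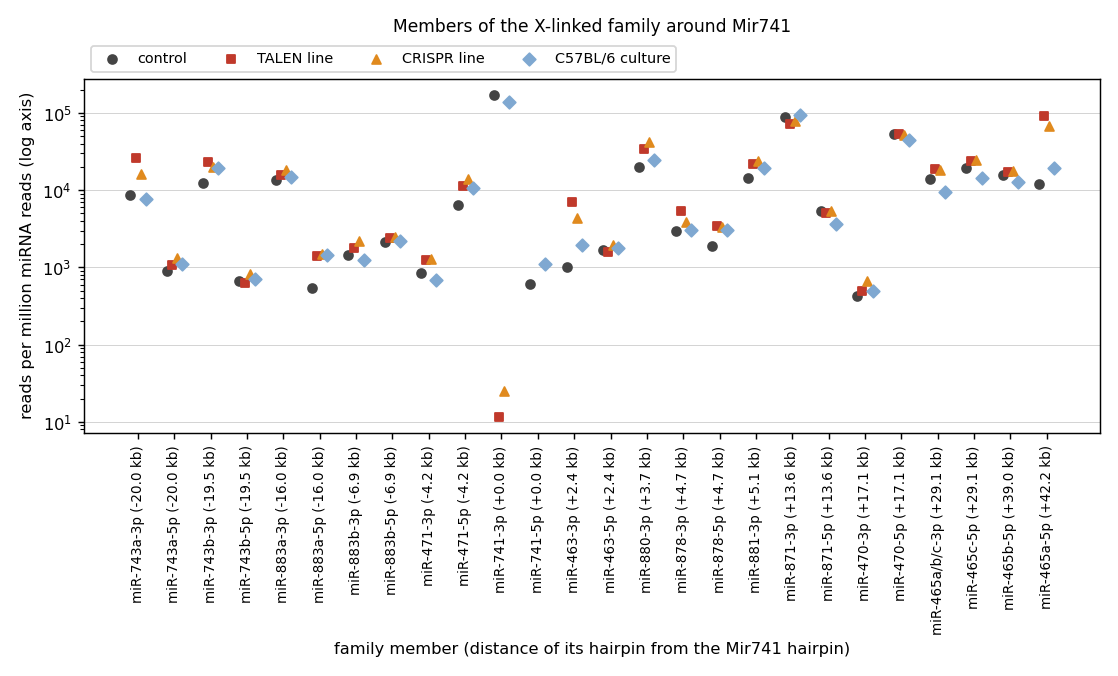
Level of 26 arms of the X-linked family that have at least 100 reads in a library of the comparison, in reads per 1000000 miRNA reads (RPM) on a log axis, 1 symbol per library, ordered by the distance of each hairpin from Mir741. miR-741-3p lies at 171011 in the control and at 11.7 and 25.4 in the TALEN and CRISPR lines and miR-741-5p has no symbol there because it had 0 reads, while miR-465a-5p and miR-463-3p are the members that lie furthest above the control in both lines.

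miR-741 aside, 24 family entries reached 100 reads in the control or in a knockout line. Both lines lay 2-fold or more above the control for 3 of them and 2-fold below it for 0. They were miR-465a-5p, miR-463-3p and miR-883a-5p. In direction, 19 were above and 2 below the control in both lines when levels were scaled by all miRNA reads, and 14 above and 6 below when the miR-741 reads were left out of the scaling. Among all 150 miRNA entries tested, 70 were above and 55 below in both lines on the first scale, and 50 and 76 on the second. The loss of miR-741 reads alone lifts every other miRNA by 0.27 on the log2 scale, and the median of the 24 was 0.38 in the TALEN line and 0.58 in the CRISPR line before, and 0.10 and 0.31 after, that shift was taken out. The family without miR-741 made up 35.8% of the remaining miRNA reads in the control, 43.9% in the TALEN line, 42.2% in the CRISPR line and 36.2% in the C57BL/6 culture. Most of that difference was miR-465a-5p, as its values show.

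miR-465a-5p had 5674 reads in the control, 23034 in the TALEN line, 13188 in the CRISPR line and 99332 in the C57BL/6 culture. In RPM this was 12114, 89863, 67029 and 19365, which made it the most abundant miRNA of the TALEN line. Its log2 ratio was 2.89 (2.85 to 2.93) in the TALEN line and 2.47 (2.42 to 2.51) in the CRISPR line. The relatives with its seed did not follow: miR-465b-5p stood at 0.14 and 0.17 and miR-465c-5p at 0.32 and 0.32. Nor did the other arm, which miR-465a, miR-465b and miR-465c share in their first 18 nt, with 0.43 and 0.38. Since the 3 hairpins are near copies, that shared arm cannot show whether the 3p arm of miR-465a alone changed.

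The other family members past 2-fold came from hairpins on either side of Mir741. miR-463-3p, from the nearest hairpin, had 468 reads in the control, 1794 in the TALEN line and 856 in the CRISPR line, with log2 ratios of 2.81 and 2.12. miR-883a-5p, from -16.0 kb, had 254, 365 and 297 reads, with ratios of 1.39 and 1.48. Each has a partner arm that moved much less, and both return with the arm ratios. miR-743a-3p passed 2-fold in the TALEN line only, with ratios of 1.59 and 0.90, and miR-880-3p and miR-471-5p passed it in the CRISPR line only, at 0.76 and 1.07 and at 0.82 and 1.14. Whether these arms differ between the lines beyond library noise was not tested.

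Across all miRNAs, 150 entries had at least 100 reads in 1 of the 3 libraries. Of these 47 (31.3%) were 2-fold or more away from the control in the TALEN line, 24 higher and 23 lower, and 33 (22.0%) in the CRISPR line, 17 higher and 16 lower. Both lines moved the same way by 2-fold for 14 higher entries (9.33%) and 14 lower ones (9.33%), miR-741 included, and none moved 2-fold in opposite directions. Since 100 reads in 1 library sufficed, some entries entered only through libraries where they were high. Among the higher ones, miR-378c, miR-19a-3p, miR-3535 and miR-184-3p had fewer than 100 reads in the control. Among the lower ones, miR-741, miR-322-3p, miR-181a-5p, miR-351-5p and miR-221-5p reached 100 reads in the control only. Both comparisons share the 1 control library, so a control value that is off moves both ratios alike. The lines themselves were 2-fold apart for 5 entries (3.33%), and the wild type cultures for 19 (12.7%), with 8 (5.33%) higher and 11 (7.33%) lower in the control. Scaled without miR-741 reads, the counts of shared differences were 10 higher and 22 lower. When the C57BL/6 culture took the control's place, 4 of the 14 higher and 10 of the 14 lower entries were still past 2-fold in both lines, and 11 and 14 lay on the same side.

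**Figure D2:**
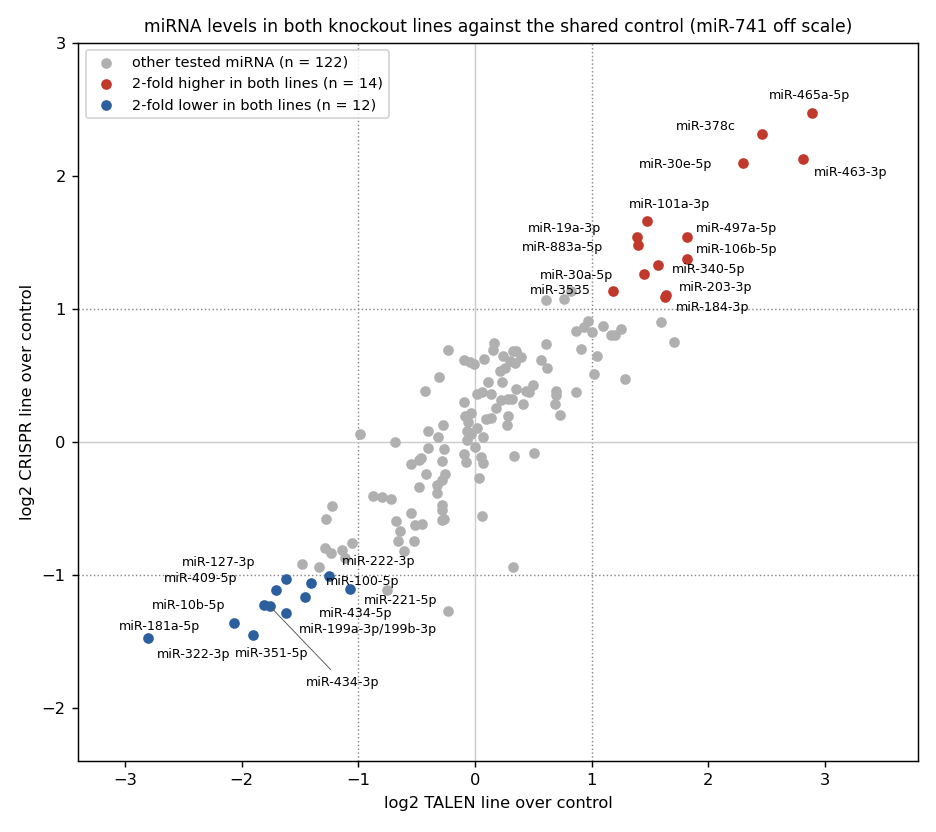
Log2 ratio of 148 miRNA entries in the TALEN line (x axis) and the CRISPR line (y axis), each over the same control library, with dotted lines at 2-fold; miR-741-3p and miR-741-5p lie off the scale. Red points are the 14 entries 2-fold higher and blue points the 12 entries other than miR-741 that are 2-fold lower in both lines; the shared control by itself stretches such a cloud along the diagonal.

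Outside the family, the largest shared gains were of miR-30e-5p and of an entry that carries the name miR-378c. miR-30e-5p, a member of the widely expressed miR-30 family, had 6101 reads in the control, 16435 in the TALEN line, 10952 in the CRISPR line and 185961 in the C57BL/6 culture. In RPM this was 13026, 64118, 55664 and 36253, with log2 ratios of 2.30 (2.26 to 2.34) and 2.10 (2.05 to 2.14). The C57BL/6 culture thus lay between the control and the lines. miR-378c had 98, 295 and 205 reads, with ratios of 2.46 and 2.32, but in the 4 libraries 95.9% to 99.3% of these reads left the miR-378c hairpin after their first 18 nt, so the entry counts reads that its own hairpin does not explain.

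The other gains were smaller and spread over several seed families. miR-106b-5p had 381, 733 and 415 reads in the control, the TALEN and the CRISPR line (ratios 1.81 and 1.37), and miR-19a-3p of the miR-17 cluster had 77, 110 and 94 (1.38 and 1.54). Of 10 tested members of the miR-17 and miR-106 clusters, which promote proliferation, these were the 2 past 2-fold in both lines, and 8 lay above the control in both, against 70 of all 150 entries, with medians of 0.70 and 0.59 that include the shift of 0.27. The C57BL/6 culture gave the list 4.05% of miRNA reads, against 4.09% in the control, 5.53% in the TALEN line and 5.10% in the CRISPR line. With miR-741 left out of the total, the C57BL/6 culture was at 4.71% and the control at 4.94%. The CRISPR line thus lay close to the control on that scale. miR-497a-5p, of the miR-15 and miR-16 seed family that restrains the cell cycle, had 132, 254 and 161 reads (1.81 and 1.54). miR-101a-3p, known to act on the Polycomb gene Ezh2, had 538, 819 and 714 reads (1.48 and 1.66), and miR-340-5p had 592, 960 and 623 (1.57 and 1.32). For some of these entries the control stood apart from the C57BL/6 culture as well. The log2 ratio of miR-101a-3p over that culture was -1.54 in the control, -0.07 in the TALEN line and 0.12 in the CRISPR line. For the lines this ratio was 0.22 and 0.38 for miR-19a-3p, -0.03 and 0.05 for miR-883a-5p and 0.16 and 0.11 for miR-3535.

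The gains were completed by miR-30a-5p (1.45 and 1.26), miR-3535 (1.18 and 1.14), miR-203-3p (1.64 and 1.10) and miR-184-3p (1.63 and 1.09). These 4 were under 2-fold in the CRISPR line when scaled without miR-741 reads, with 0.99, 0.86, 0.83 and 0.82. miR-203-3p, a miRNA of stratified epithelia, was the 1 tested entry of 7 epithelial markers; its C57BL/6 level of 2882 RPM was above the control (730.2), the TALEN line (2274) and the CRISPR line (1571). For this miRNA the control was thus the library that stood apart. Together the 14 higher entries took 3.62% of miRNA reads in the control, 19.1% in the TALEN line, 15.3% in the CRISPR line and 7.96% in the C57BL/6 culture.

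The entries lower in both lines, miR-741 aside, were 12 and took 3.55% of miRNA reads in the control, 1.15% in the TALEN line, 1.58% in the CRISPR line and 3.52% in the C57BL/6 culture. The wild type cultures were close here and the lines below both. miR-322-3p, from an X-linked cluster it shares with miR-351, had 166, 13 and 25 reads in the control, the TALEN and the CRISPR line, with log2 ratios of -2.80 (-3.74 to -1.99) and -1.48 (-2.15 to -0.87). miR-351-5p had 137, 20 and 21 reads (-1.91 and -1.45). Both tested entries of that cluster were thus low, on few reads, and both entered through the control only. miR-181a-5p, known from lymphocyte development, had 153, 20 and 25 reads (-2.07 and -1.36).

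The more abundant of the lower entries are known from fibroblasts and other mesenchymal cells, or from an imprinted locus. The entry of miR-199a-3p and miR-199b-3p, which share their sequence, had 4571 reads in the control, 816 in the TALEN line, 785 in the CRISPR line and 46649 in the C57BL/6 culture. In RPM it stood at 9759, 3183, 3990 and 9094, with ratios of -1.62 (-1.73 to -1.51) and -1.29 (-1.40 to -1.18). miR-10b-5p, whose gene lies among the HoxD genes, had 2698, 422 and 483 reads (-1.81 and -1.23), and miR-100-5p had 2285, 472 and 460 (-1.41 and -1.06). These were the 3 of 13 tested entries of the feeder or stromal list that were 2-fold lower in both lines; 9 of the 13 were below the control in both, against 55 of all 150 entries, and none was 2-fold higher.

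That list bears on the fibroblast feeder layer, whose RNA any of these cultures may hold. Its reads summed to 12.4% of miRNA reads in the control, 9.21% in the TALEN line, 11.1% in the CRISPR line and 10.5% in the C57BL/6 culture. With miR-741 left out of the total these shares were 14.9%, 9.21%, 11.1% and 12.2%. Much of the list's share is miR-10a-5p, which cultured SSCs also hold. It stood at 56644, 55430 and 65794 RPM in the control, the TALEN and the CRISPR line. miR-143 and miR-145a of the list are not in the reference table and were not analysed here. Of the list's 17 miRNAs, 24 entries had a read. In pooled RNA, fewer cells of a type and less RNA per cell cannot be told apart, and the part of the feeder cells in these differences was not tested.

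Members of the imprinted Dlk1-Dio3 region of chromosome 12, whose miRNAs come from the maternal allele, moved with them. Of 10 tested entries 4 were 2-fold lower in both lines, against 14 of all 150 (9.33%), 7 were below the control in both, against 55 of 150, and the list summed to 1.87% of miRNA reads in the control, 0.90% in the TALEN line, 1.08% in the CRISPR line and 2.31% in the C57BL/6 culture. miR-434-3p had 612, 99 and 109 reads in the control, the TALEN and the CRISPR line (-1.76 and -1.24), and its partner miR-434-5p had 724, 144 and 135 (-1.46 and -1.17). miR-409-5p had 1951, 327 and 379 reads (-1.71 and -1.11), and miR-127-3p had 2666, 475 and 548 (-1.62 and -1.03). Both arms of the miR-434 hairpin thus differed alike.

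The remaining lists showed how far the lines still resembled cultured SSCs. Of 9 tested entries of miRNAs known from SSC cultures, among them miR-21a, miR-146a and the miR-183 cluster, 2 were 2-fold lower in both lines and 0 higher. These were miR-222-3p, with 488, 112 and 102 reads in the control, the TALEN and the CRISPR line (-1.25 and -1.01), and miR-221-5p with 154, 40 and 30 (-1.08 and -1.11). The more abundant arm of the latter hairpin, miR-221-3p, had 1186, 268 and 333 reads. It passed 2-fold in the TALEN line only (-1.28 and -0.58). Both hairpins are linked to upkeep of undifferentiated spermatogonia. The list summed to 10.8% of miRNA reads in the control, 9.74% in the TALEN line, 11.2% in the CRISPR line and 10.2% in the C57BL/6 culture. With miR-741 left out of the total the control was at 13.0% and the C57BL/6 culture at 11.9%, so that both lines lay below both. All 8 tested let-7 entries, miRNAs that rise as cells differentiate, were below the control in both lines, against 55 of all 150 entries, and none by 2-fold in both, with medians of -0.58 and -0.62. They summed to 3.60% of miRNA reads in the control, 2.26% in the TALEN line, 2.23% in the CRISPR line and 2.03% in the C57BL/6 culture, so again the control was the library that stood apart.

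Markers of other cell types were scarce in all libraries. None of 4 tested pluripotency entries (the miR-290 and miR-302 clusters) was 2-fold away in both lines. Their list summed to 0.35% of miRNA reads in the control, 0.44% in the TALEN line and 0.53% in the CRISPR line. With miR-741 left out of the total the control was at 0.42%. Meiotic and post-meiotic germ cell miRNAs (miR-34b, miR-34c and miR-449) had 111, 48 and 25 reads in the control, the TALEN and the CRISPR line, Sertoli or gonadal miRNAs 1, 0 and 6, and blood miRNAs 52, 104 and 109, with no entry tested in these lists. As shares of miRNA reads the meiotic list was at 0.024%, 0.019% and 0.013%, with 0.041% in the C57BL/6 culture. The blood list was at 0.011%, 0.041% and 0.055%, with 0.018% in that culture. The 1 tested entry of the muscle and endothelial list differed by 0.06 and 0.37.

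Among 20 seeds with at least 2 tested miRNAs, none held both a higher and a lower member, and 1 held 2 higher ones. That seed was GUAAACA, with miR-30e-5p and miR-30a-5p, while the other tested member, miR-30c-5p, stood at 0.02 and 0.11. Scaled without miR-741 reads, miR-30a-5p was at 0.99 in the CRISPR line and 0 seeds held 2 higher members. Of the seed AAAGUGC, miR-17-5p (1.20 and 0.80) and miR-20a-5p (1.16 and 0.80) lay below miR-106b-5p, and the median of its 4 members was 1.18 and 0.80. Of the seed AGCAGCA, miR-16-5p stood at 1.04 and 0.64, miR-195a-5p at 0.62 and 0.55 and miR-15b-5p at -0.04 and 0.60. The 3 members of ACCCGUA were all lower: beside miR-100-5p, miR-99a-5p stood at -1.33 and -0.94 and miR-99b-5p at -1.23 and -0.83. miR-10a-5p, with the seed of miR-10b-5p, stood at -0.03 and 0.22, so sequences with 1 seed did not always move together.

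The 3' ends of miRNAs were read in 111 entries with at least 100 reads in each of the 3 libraries. Summed over their reads, ends longer than the reference and templated by the hairpin made up 17.3% in the control, 26.8% in the TALEN line, 25.1% in the CRISPR line and 20.5% in the C57BL/6 culture. Shorter ends made up 21.97%, 16.3%, 17.7% and 18.02%, and reference ends 50.8%, 48.5%, 48.6% and 51.4%. Untemplated 3' bases, mostly T and A, were on 8.66% of reads in the control, 7.399% in the TALEN line and 7.68% in the CRISPR line. The mean 3' end of templated reads thus moved from -0.08 nt before the reference end in the control to 0.13 nt (TALEN) and 0.10 nt (CRISPR) past it.

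The shift was smaller when miRNAs that differed most in level were left out. The shares with miRNAs left out are over all miRNA reads, whereas the 111 entries do not hold miR-741. Without miR-741 alone, longer ends made up 17.1% in the control, 26.5% in the TALEN line, 24.7% in the CRISPR line and 20.2% in the C57BL/6 culture. Without miR-741, miR-465a-5p and miR-30e-5p, longer ends made up 15.9% in the control, 17.5% in the TALEN line, 17.6% in the CRISPR line and 17.1% in the C57BL/6 culture, and shorter ends 22.5%, 19.2%, 19.99% and 19.1%. With each miRNA weighted alike, the mean difference in longer ends was -0.01 percentage points in the TALEN line and 0.60 in the CRISPR line. Per miRNA, 8 of the 111 entries (7.21%) had a form that moved by 10 points the same way in both lines. Reference ends were higher in 3 (2.7%) and lower in 3 (2.7%), while they were 10 points apart between the lines in 9 entries (8.11%) and between the wild type cultures in 9 (8.11%). Longer ends were higher in 3 (2.7%), as often as they were apart between the lines (3 entries, 2.7%), and apart between the wild type cultures in 2 (1.8%). Shorter ends were higher in 2 (1.8%) and lower in 3 (2.7%), and apart between the lines in 7 (6.31%). Untemplated ends, higher in 1 (0.901%), were apart between the wild type cultures in 2 (1.8%). A shared move has to pass in both lines, so its count is not like these counts of 1 comparison. Taken singly, reference ends were 10 points away from the control in 11 entries in the TALEN line and 13 in the CRISPR line. For shorter ends these counts were 9 and 8, and for longer ends 6 and 4.

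miR-465a-5p stood out by its end as well as its level. Its sequence is shown at the lengths of its leading tags, with the added base, which the hairpin templates, in capitals.
miR-465a-5p, 23 nt: tatttagaatggcactgatgtga
miR-465a-5p, 24 nt: tatttagaatggcactgatgtgaT
The 24-nt tag had 1556 reads in the control, 14609 in the TALEN line, 8250 in the CRISPR line and 22377 in the C57BL/6 culture, and the 23-nt tag 3413, 6732, 3858 and 64043. The longer tag was the minor form in both wild type libraries and the major form in both lines. Longer ends made up 27.8% of the miRNA's reads in the control, 64.7% in the TALEN line, 63.7% in the CRISPR line and 22.8% in the C57BL/6 culture. Per 1000000 of all reads the 24-nt tag differed by 4.01 and 3.68 on the log2 scale.

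The other miRNAs whose ends moved in both lines did so by fewer points. miR-195a-5p had longer ends on 40.7% of reads in the control, 62.6% in the TALEN line, 63.0% in the CRISPR line and 44.3% in the C57BL/6 culture, and here too the wild type libraries were close. miR-106b-5p had longer ends on 25.5%, 35.5%, 36.1% and 30.4%. miR-96-5p, of the miR-183 cluster, had its reference end on 52.8%, 64.7%, 66.8% and 61.3%, and miR-16-5p on 55.5%, 69.5%, 66.3% and 52.1%. In 2 entries the shorter ends moved in opposite directions, from 53.6% in the control to 33.04% and 25.2% in miR-298-5p, and from 44.98% to 57.6% and 59.6% in miR-335-5p, in the TALEN and CRISPR lines. The entry miR-1195, with 537, 174 and 104 reads in the control, the TALEN and the CRISPR line, mostly did not match its hairpin, with mismatches in 77.8% of control reads, 55.2% of TALEN reads and 47.1% of CRISPR reads.

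**Figure D3:**
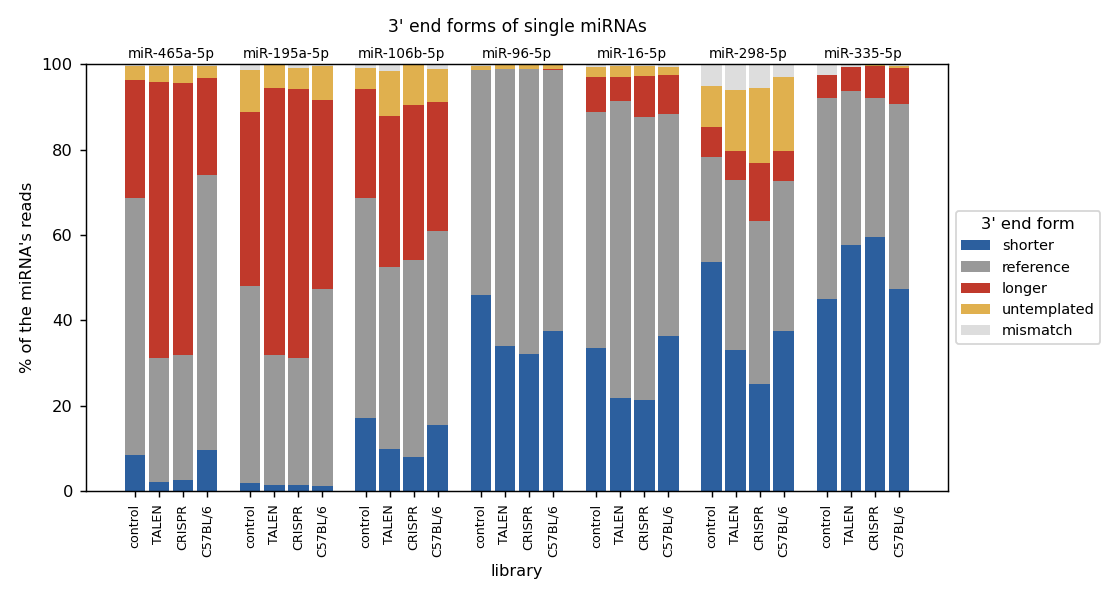
3' end forms of 7 miRNAs as stacked shares of their reads (percent), 1 bar per library: shorter than, equal to or longer than the reference end, untemplated bases, and mismatches. The red share of miR-465a-5p is 64.7% and 63.7% in the lines against 27.8% in the control and 22.8% in the C57BL/6 culture, and that of miR-195a-5p is 62.6% and 63.0% against 40.7% and 44.3%.

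Arm ratios compare the strands of 1 hairpin, so scaling by a library total plays no part. The ratios used 1 added read, and where an arm has 0 reads they still move with depth. In 72 hairpins with at least 100 reads over both arms in each library, the ratio of 5p to 3p reads moved by 2-fold the same way in both lines in 24 (33.3%), towards 5p in 9 and towards 3p in 15. Taken singly, the ratio was 2-fold away from the control in 37 hairpins (51.4%) in the TALEN line and in 28 (38.9%) in the CRISPR line. The lines were 2-fold apart in 11 (15.3%) and the wild type cultures in 22 (30.6%). A shared move has to pass in both lines, so its count is not like these counts of 1 comparison. Most hairpins use 1 arm almost alone, and 26 of the 72 had an arm without a read in some library, 10 of the 15 moves towards 3p among them. In 5 of the hairpins called moved, such as miR-100 and miR-99a, 1 arm had 0 reads in all 3 libraries, so the ratio moved only with the reads of the other arm. In the 39 hairpins with at least 10 reads of each arm in each of the 3 libraries, 6 moved towards 5p and 3 towards 3p, the lines were 2-fold apart in 1 and the wild type cultures in 8.

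miR-463, from the hairpin next to Mir741, showed the largest move among these 39. It had 790 reads of the 5p and 468 of the 3p arm in the control, 408 and 1794 in the TALEN line, and 380 and 856 in the CRISPR line. The 5p arm thus took 62.8% (60.1 to 65.5) in the control, 18.5% (16.9 to 20.2) in the TALEN line, 30.7% (28.2 to 33.4) in the CRISPR line and 47.2% in the C57BL/6 culture. The major arm was 5p in the control and 3p in the other 3 libraries. miR-883a, the other family hairpin that moved, went towards 5p, from 3.89% in the control to 8.33% and 7.63% in the lines, but the C57BL/6 culture was at 9.04%.

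For miR-106b and miR-872 the wild type cultures were within a few points of each other and the lines lay apart from both. The 5p share of miR-106b was 50.5% in the control, 75.5% in the TALEN line, 68.0% in the CRISPR line and 46.8% in the C57BL/6 culture. That of miR-872 was 36.9%, 56.6%, 57.9% and 40.4%. For both, the intervals of the lines and of the control did not overlap. miR-340 went from 79.7% in the control to 92.4% and 90.3% in the lines, with 85.7% in the C57BL/6 culture, and miR-30e from 96.5% to 99.1% and 98.9%, with 98.3%. Among the moves towards 3p, miR-130b went from 87.6% to 73.4% and 75.2%, with the C57BL/6 culture at 76.1%, and miR-99b from 99.8% to 99.0% and 99.3% on 22, 24 and 17 reads of its 3p arm. miR-127 moved towards 5p on 22, 16 and 10 reads of its 5p arm.

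**Figure D4:**
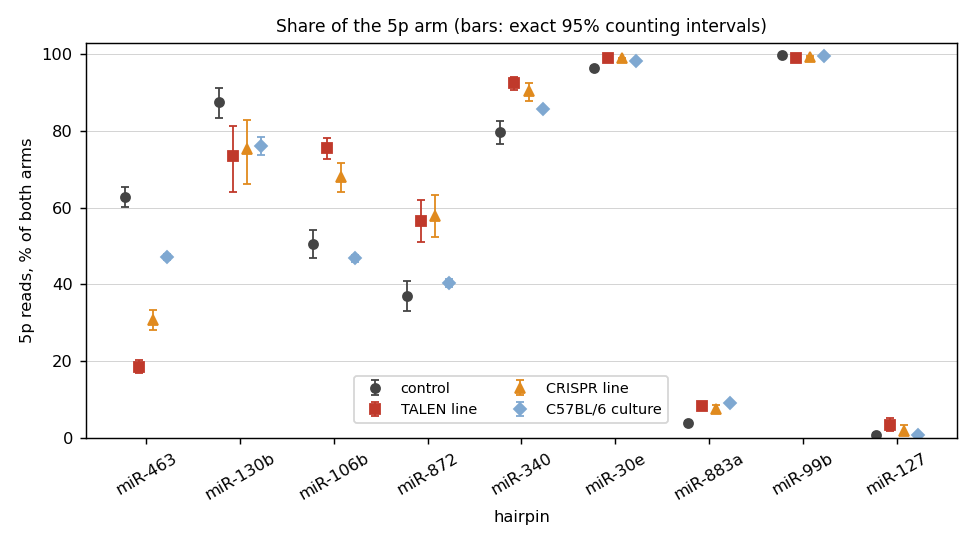
Share of 5p reads among the reads of both arms (percent) for the 9 hairpins that moved by 2-fold in both lines and had at least 10 reads of each arm in the 3 libraries, with exact 95% counting intervals, 1 symbol per library. The lines lie below the control for miR-463 and miR-130b and above it for miR-106b, miR-872 and miR-340; for miR-130b and miR-883a the C57BL/6 culture lies with the lines.

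The longer reads, in which piRNAs would lie, did not move the same way in the lines. Reads of 25 to 32 nt made up 32.1% of all reads in the control, 34.6% in the TALEN line, 27.5% in the CRISPR line and 50.6% in the C57BL/6 culture. Outside known miRNAs, tRNAs, rRNAs and other listed noncoding RNAs they made up 21.97%, 25.2%, 17.4% and 39.4%. The TALEN line was thus above and the CRISPR line below the control, and the gap between the wild type cultures was wider than either. Of these reads outside noncoding RNAs, 69.4% began with T in the control, 66.2% in the TALEN line, 58.2% in the CRISPR line and 76.9% in the C57BL/6 culture. The first base typical of primary piRNAs thus had a lower share in both lines, lowest in the CRISPR line. As a share of all reads, however, these first-T reads were 15.2% in the control, 16.7% in the TALEN line and 10.1% in the CRISPR line, so the TALEN line had more of them. An A at the tenth base, a mark of piRNAs made in the ping-pong cycle, was found in 28.2%, 30.2%, 26.6% and 31.4%.

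Outside noncoding RNAs, reads of 26 to 28 nt made up 10.9% of all reads in the control, 11.3% in the TALEN line and 7.14% in the CRISPR line. Reads of 29 to 32 nt made up 9.84%, 12.3% and 9.05%. At 31 nt the CRISPR line was above the control, with 2.51% against 2.26%, and at 32 nt with 1.57% against 1.38%. In the share with a first T, the TALEN line differed at the lower end of the window and the CRISPR line throughout. At 26 to 28 nt, the first base was T in 76.5% of the control's reads, 71.6% of the TALEN line's, 65.6% of the CRISPR line's and 81.1% of the C57BL/6 culture's. At 29 to 32 nt these shares were 62.4%, 62.6%, 53.7% and 72.3%, so that the TALEN line was close to the control there. Among all reads of 25 to 32 nt, which include tRNA fragments, the share with a first T was 52.8% in the control, 52.8% in the TALEN line and 43.1% in the CRISPR line. Counted over distinct sequences outside noncoding RNAs, it was 74.5%, 70.4% and 65.4%. Rare sequences are missed in the smaller libraries, which hold 148553 (TALEN) and 99077 (CRISPR) distinct sequences against 181473 in the control.

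Fragments from the 5' end of tRNAs, which are often cut in the anticodon loop, made up 9.72% of all reads in the control, 7.62% in the TALEN line, 8.40% in the CRISPR line and 10.7% in the C57BL/6 culture. The summed log2 ratio was -0.35 and -0.21. Of 14 tRNA prefixes with at least 100 reads in the control, 10 were lower and 2 higher in both lines, and none was 2-fold lower in both. The most abundant, called here the GCATTGG form of tRNA-Gly after its first bases, had 45041 reads in the control, 27373 in the TALEN line and 23367 in the CRISPR line, which is 3.11%, 3.24% and 3.91% of reads (0.06 and 0.33). tRNA-Gly that starts with GCATGGG stood at -0.28 and -0.37, tRNA-Lys-CTT at -0.41 and -0.53 and tRNA-Glu-TTC at -0.84 and -0.69. The largest difference among the 5 most abundant was in tRNA-Val-AAC/CAC, with 24718, 5708 and 5247 reads (-1.33 and -0.96), but its share of 1.71% in the control was also above the 0.79% of the C57BL/6 culture, next to 0.68% and 0.88% in the lines.

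What the lines shared was where the leading tRNA-Gly fragments end. Only the ends of fragments were read, and how these ends arose was not tested. The leading tRNA-Gly fragments are shown because they differ by their last bases, which are in capitals past the shortest form.
tRNA-Gly (GCATTGG form), 31 nt: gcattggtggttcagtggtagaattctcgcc
tRNA-Gly (GCATTGG form), 32 nt: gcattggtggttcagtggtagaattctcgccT
tRNA-Gly (GCATTGG form), 35 nt: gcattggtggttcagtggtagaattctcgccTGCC
For each fragment of 31 nt from this tRNA there were 1.33 fragments of 32 nt in the control, 4.92 in the TALEN line, 4.82 in the CRISPR line and 1.18 in the C57BL/6 culture. The 35-nt tag, which ends in the anticodon loop beyond them, had 1286 reads in the control, 2749 in the TALEN line and 1946 in the CRISPR line, or 2.86%, 10.0% and 8.33% of the tRNA's reads. The 32-nt form thus prevailed far more in the lines than in either wild type culture. The wild type cultures were not alike in other ends, since 30-nt fragments made up 3.45% of the tRNA's reads in the control and 26.7% in the C57BL/6 culture, against 1.90% in the TALEN line and 1.43% in the CRISPR line.

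Other tRNAs did not all follow. The ratio of 32-nt to 31-nt fragments was 1.52 in the control, 4.84 in the TALEN line, 5.83 in the CRISPR line and 1.70 in the C57BL/6 culture for the GCATGGG form of tRNA-Gly, and 0.87, 1.23, 1.30 and 0.75 for another form, which also starts with GCATTGG and differs further on. In tRNA-Val-AAC/CAC the ratio of 33-nt to 32-nt fragments was 1.58, 2.57, 2.24 and 1.39. It went the other way in tRNA-Lys-CTT, with 2.40, 1.45, 1.64 and 4.17, and in tRNA-Lys-TTT, with 10.3, 4.49, 2.87 and 2.96. Over all listed tRNAs, 31-nt fragments went from 22.2% in the control to 11.8% and 11.7% in the lines, and 32-nt fragments from 38.6% to 50.2% and 52.4%.

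**Figure D5:**
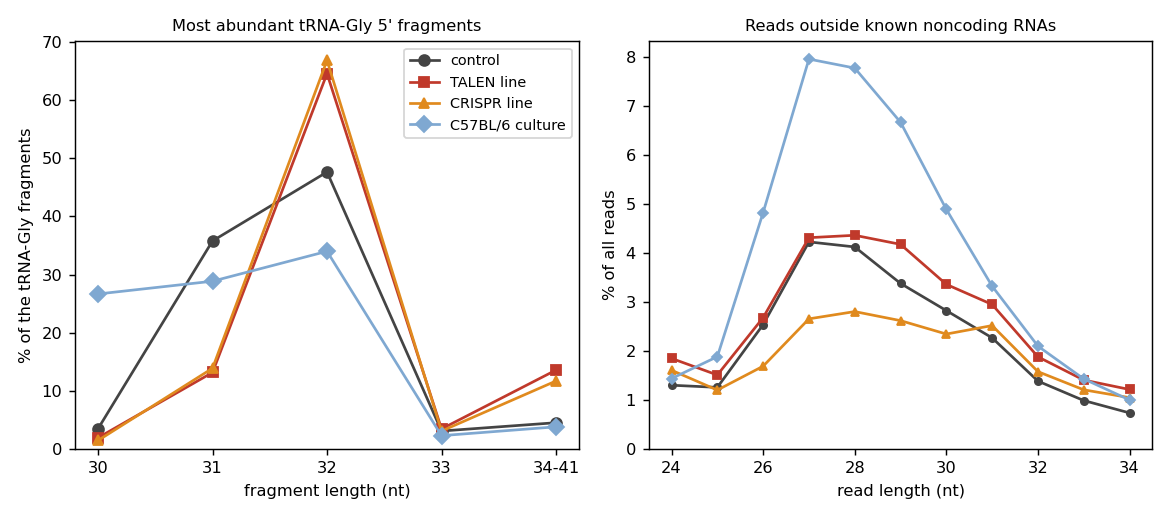
Left, lengths of the fragments of the GCATTGG form of tRNA-Gly, as percent of its reads; right, reads outside known noncoding RNAs by length, as percent of all reads; 1 line per library. On the left both lines drop at 31 nt and peak higher at 32 nt than the control and the C57BL/6 culture; on the right, in the piRNA-sized range, the TALEN line lies above and the CRISPR line mostly below the control, with the C57BL/6 culture far above at 27 nt.

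Reads of rRNA differed between the lines in amount. They made up 5.93% of all reads in the control, 4.79% in the TALEN line and 11.3% in the CRISPR line, against 1.85% in the C57BL/6 culture. In the control and the lines most came from 5S rRNA, the small RNA of the large ribosomal subunit. Reads that end at base 95 or 96 of 5S made up 3.84% of all reads in the control, 2.36% in the TALEN line, 7.41% in the CRISPR line and 0.084% in the C57BL/6 culture. Reads that reach its 3' end made up 0.49%, 1.40%, 2.66% and 0.39%. The 3' end was thus more frequent in both lines than in both wild type cultures, while the internal fragment was lower than in the control in the TALEN line and higher in the CRISPR line. The leading tag of the 3' end is shown as the one with the largest count among the 11 rRNA tags that were 4-fold higher in both lines.
5S, 3' end: ggaataccgggtgctgtaggctt
It spans bases 98 to 120 and had 353 reads in the control, 1484 in the TALEN line, 3379 in the CRISPR line and 179 in the C57BL/6 culture. Summed reads from the 5' ends of the other rRNAs of the large subunit were lower in both lines. For 28S they made up 0.51% of all reads in the control, 0.29% in the TALEN line and 0.27% in the CRISPR line. For 5.8S these shares were 0.47%, 0.26% and 0.27%. The 20-nt tag of 28S had 1726, 761 and 433 reads, and the 26-nt tag of 5.8S had 1641, 264 and 192. Single tags did not all follow. As a share of all reads, the 19-nt tag of 5.8S (127, 176 and 93 reads) was higher in both lines. The 27-nt tag (354, 206 and 177 reads) was level in the TALEN line and higher in the CRISPR line.

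Small nucleolar RNAs (snoRNAs), which guide modification and cutting of rRNA, differed in both lines mainly through 1 gene. They made up 3.40% of all reads in the control, 4.17% in the TALEN line, 3.84% in the CRISPR line and 2.17% in the C57BL/6 culture. Without the gene Snord118 they made up 3.29%, 3.40%, 3.39% and 2.08%. Among 74 snoRNA genes that reached 100 reads in any of the 3 libraries, 13 (17.6%) were 2-fold away from the control in both lines, 12 of them higher and 1 lower, while the lines were 2-fold apart from each other in 2 (2.7%). The most abundant of these was Snord118, which encodes U8, a snoRNA needed for the maturation of 28S and 5.8S rRNA, and lies at chr11:69073427-69073561 on the plus strand. It had 1600 reads in the control, 6477 in the TALEN line, 2726 in the CRISPR line and 18646 in the C57BL/6 culture, with log2 ratios of 2.80 and 2.05 per 1000000 reads. Most of its reads were 1 internal tag of 28 nt.
Snord118, 28 nt: gaaaatgatgattggagcttgcatgatc
This tag had 1228 reads in the control, 5712 in the TALEN line and 2395 in the CRISPR line. Snord2 (481, 892 and 612 reads), Snord82 (287, 500 and 274), Snord45b (249, 429 and 230), Snord49a (218, 340 and 203) and Snord42b (101, 157 and 142) were the other SNORD genes 2-fold higher in both lines, with reads in the order control, TALEN and CRISPR. The remaining higher genes were Gm23711, Scarna17, Gm22009, Gm25506, Gm26109 and Gm24453. Each had fewer than 100 reads in the control and so entered only through a knockout line. The count of higher snoRNA genes thus depends in part on this filter. The lower gene was Snora62, with 194, 46 and 39 reads (-1.30 and -1.04), but the control was itself 3.18 above the C57BL/6 culture on the log2 scale.

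Of other classes, 0 of 16 snRNA genes were 2-fold away in both lines. Among 8 mitochondrial tRNA genes, mt-Ts1 was higher, with 227, 346 and 233 reads in the control, the TALEN and the CRISPR line (1.39 and 1.32), and mt-Te lower, with 115, 25 and 18 (-1.42 and -1.40). Among 13 genes annotated as other small RNAs, 1 (7.69%) was higher and 4 (30.8%) lower, among the lower Rn7s1, a gene of the 7SL RNA of the signal recognition particle, with 118, 27 and 12 reads. These counts are small and hold for these libraries.

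Taken as single sequences with no annotation, 1009 tags had at least 100 reads in 1 of the 3 libraries. Of these 60 (5.95%) were 4-fold higher and 20 (1.98%) 4-fold lower in both lines, and 27 (2.68%) were 4-fold apart between the lines. Some tags entered only through the libraries where they were high, so the counts of gains and losses depend on this filter. A gained tag of Gm24453 had 14 reads in the control, 126 in the TALEN line and 124 in the CRISPR line. A lost tag of the 18S region had 177, 14 and 9. The count of tags 4-fold apart between the wild type cultures is not given here. Of the 20 lower tags, 12 lay within 1 base of the Mir741 hairpin. Beyond the knocked-out hairpin, losses of that size shared by both lines were thus 8 tags, while the gains included 11 miRNA tags, 11 rRNA tags, 4 snoRNA tags, 2 mitochondrial tRNA tags, 14 tags of mRNAs or long noncoding RNAs, 18 that matched no listed class, and 0 tags of nuclear tRNAs. The most abundant of these miRNA tags were the 24-nt tag of miR-465a-5p and the 24-nt and 23-nt tags of miR-30e-5p; the latter had 4574 and 581 reads in the control, 11003 and 3962 in the TALEN line, and 7826 and 2010 in the CRISPR line. An 18-nt tag of the mitochondrial tRNA gene mt-Ts2 had 47, 814 and 364 reads in the control, the TALEN and the CRISPR line, or 32.4, 965 and 609 per 1000000 reads. The C57BL/6 culture, at 221 per 1000000, lay between the control and the lines.

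The 3 libraries held 1449449 (control), 843664 (TALEN) and 597732 (CRISPR) reads. miRNAs took 32.3%, 30.4% and 32.9% of them, and reads that matched no listed noncoding RNA 42.8%, 49.2% and 39.4%. The counting intervals of the shares given here are narrow. The spread between cultures of 1 genotype and strain was not measured. The differences between the wild type cultures come nearest to it, but these cultures differ in strain and in depth too. The C57BL/6 library held 20302560 reads. Among these differences are the 12.7% of miRNAs that were 2-fold apart and the arm ratios and 3' ends given above.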

How the data were processed

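The authors deposited, per the file headers and values, a count of reads for each distinct sequence tag of 17 to 41 nt in each library. Per the labels, RNA was taken with TRIzol and libraries followed the Illumina small RNA protocol; Bowtie and GRCm38 (mm10) stand in the submitters' processing notes, with no version, and trimming steps are not given in the sources used here.

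Tags of 18 to 26 nt were given to a miRNA by the first 18 nt of its RefSeq mature sequence (1738 rows, joined to 1667 entries where these are shared), and others to GENCODE noncoding transcripts. Nuclear tRNAs, 28S and 5.8S were found by 22 prefixes from field knowledge, which were not checked against a genome, so only 5' fragments of tRNAs were read. In 5S, positions count from the first base of n-R5s100. Levels are reads per 1000000 miRNA reads, or per 1000000 reads for other classes, and a count of 0 was set to 3. The main scaling was by total; TMM (edgeR 4.0.16), DESeq2 1.42.0 size factors and other settings were alternatives. Arm ratios used 1 added read. Code was tested on simulated data. PCR reads without molecular identifiers are not independent molecules.

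The 10 largest shared differences each way among miRNAs, the family, the 5 most abundant tRNA prefixes and the 3 most abundant changed tags per class were named by rule. Further members of the 2-fold sets, and arm ratios and RNA genes taken from those with more reads, were named after their values were seen. Members and lists were chosen with earlier results of these data known.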

Additional observations from a re-analysis of the deposited data

Results flagged for a closer look

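The lines lay on opposite sides of the control in 6 shares of all reads, and these differences between the lines were not tested, since each line has 1 library. For 5S rRNA reads the TALEN line lay -0.568 percentage points from the control and the CRISPR line 5.8, and for all rRNA reads -1.14 and 5.39. For 5S reads that end at base 95 or 96 the values were -1.48 and 3.57. Reads of 25 to 32 nt lay 2.54 points from the control in the TALEN line and -4.62 in the CRISPR line, and those outside noncoding RNAs 3.23 and -4.59. For miRNA reads the values were -1.93 and 0.603. All are shares of 1 total, so a class that takes more reads leaves fewer for the others.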

How the results depend on the processing

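The 28 miRNA entries that were 2-fold away in both lines gave 402 values under other scalings, read filters and ways of counting, and all 402 kept their sign. The entries were picked for large ratios in these same libraries, so a kept sign was likely beforehand and is no support. By whole mature sequences 15 of the 28 could be tested, and 10 were still 2-fold away. The 402 leave out the C57BL/6 culture in the control's place, where 11 of the 14 higher entries lay on the same side. The number 2-fold higher in both lines (14) was 4 at 3-fold, 7 against the C57BL/6 culture, 24 with at least 30 reads, 9 with at least 300 reads and 61 with no filter on reads. The number lower (14) was 2, 16, 19, 9 and 24 under the same settings, 22 when scaled without miR-741, 6 when only whole mature sequences were counted and 4 when the counting interval had to pass 2-fold. Between the lines, 5 entries were 2-fold apart, against 16 with at least 30 reads, 2 with at least 300, 72 with no filter and 3 by whole sequences. For 3' ends, the differences in percentage points with each miRNA weighted alike were -0.0144 (TALEN) and 0.602 (CRISPR) for longer ends, -0.470 and -0.311 for shorter ends, and 1.10 and 0.0879 for reference ends, against 9.56 and 7.78, -5.68 and -4.30, and -2.30 and -2.23 over all reads. Without miR-465a-5p and miR-30e-5p they were 1.68 and 1.77, -3.46 and -2.61, and 2.83 and 1.71, where miR-741 was not among the entries. Reference ends thus turned direction under both settings. At 5 points, 32 miRNAs had a form that moved, against 8. Arm moves towards 3p were 3, against 15, with at least 10 reads of each arm. The first-T share of reads of 25 to 32 nt differed by 0.00338 points (TALEN) and -9.78 (CRISPR); it was 3.59 and -3.82 at 24 to 33 nt and -4.26 and -11.8 outside miRNAs, tRNAs and rRNAs, and over distinct sequences it was -3.93 in the TALEN line. The share of these reads differed by 2.54 and -4.62 points; it was 5.31 and -1.94 at 24 to 33 nt, 3.94 and -4.22 outside those classes, and -5.76 and -11.96 over distinct sequences. The log2 ratio of 5S in the CRISPR line was 1.18 with 1 mismatch allowed. That of all tRNAs was -0.42 and -0.26 over 25 to 34 nt, and -0.39 in the TALEN line outside miRNAs. The count of lower snoRNA genes was 0 outside rRNA. Single tags were 154 higher and 156 lower at 2-fold, and 121 and 51 with at least 50 reads. For these shifts the cause was not tested. No paired analysis was possible because each group has 1 library, and for the same reason no library could be left out. Fragments from the 3' end of tRNAs were not analysed here. The alternatives added later were chosen after seeing the data. Depth limits the miRNAs with few reads in the CRISPR line, the smallest library.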
